A study of Mus musculus with 18 samples.

Results

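The 10 genes of lipid uptake, storage and efflux described here, by the accessibility of chromatin around them in mouse macrophages, were Abca1, Abcg1, Cd36, Msr1, Lpl, Plin2, Nr1h3, Rxra, Pparg and Mylip. A region was assigned to a gene when its midpoint lay in the body of that gene, or was nearest to it among protein-coding genes within 50 kb. This gave 84 of the 53796 regions in the data, 17 of them at Abca1, 13 at Msr1, 12 at Cd36, 11 at Plin2, 8 at Pparg, 7 each at Lpl and Rxra, 4 at Abcg1, 3 at Mylip and 2 at Nr1h3. Of the 84 regions, 54 lay inside the gene. Being near a gene is no evidence that a region acts on it.

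ATAC-seq, in which a transposase cuts and tags open DNA, was run on bone marrow-derived macrophages of wild-type C57BL/6 mice aged 6 to 12 weeks, grown with 20 ng/mL of M-CSF until they were replated on day 7. Every group received a first treatment for 4 h and then, in fresh medium, a second one for 4 h, and is written here by its first and second letter. The groups with 1 stimulus had medium first: MC received CpG DNA (100 nM), which is sensed in endosomes by Toll-like receptor 9, ML received LPS (1 ng/mL) from the outer membrane of bacteria, MP received polyI:C (1 µg/mL), a mimic of viral double-stranded RNA, and MT received the cytokine TNF (10 ng/mL). CL and PL received CpG or polyI:C before LPS, CT and PT received CpG or polyI:C before TNF, and MM received medium in both periods. The 9 groups had 2 libraries each. The labels name no separate mice or cultures for them, so the spread behind each p-value is that between these libraries and may be technical.

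Macrophages take up modified lipoproteins and fatty acids through scavenger receptors, store the cholesterol as esters in lipid droplets, and export it to lipoprotein particles. Excess cholesterol yields oxysterols, which activate the nuclear receptor LXR. LXR binds DNA together with RXR and induces the exporters Abca1 and Abcg1 and the ubiquitin ligase Mylip, which limits the uptake of lipoproteins. PPARγ, also a partner of RXR, induces the fatty acid receptor Cd36 and genes of lipid storage.

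Accessibility is given as log2 CPM, the count of a region relative to its library, so a difference of 1 is a doubling of accessibility. A region was called when its limma p, adjusted by Benjamini-Hochberg over all 53796 regions, was under 0.05. Libraries held 3141641 to 5986835 reads in regions, and a region of these 10 genes held 3 to 367 reads per library, with a median of 63. Regions of all 8 macrophage markers examined were present, 55 in number, with a summed level of 628.4 to 1068 CPM per library. Their mean was 16.7 CPM per region, against 12.7 to 20.2 for the lists of other cells. The highest mean was that of erythroid and progenitor genes, whose 10 regions summed to 165 to 271.3 CPM per library. They summed to 173.3 and 177.4 in ML, 224.4 and 271.3 in PT and 206.1 and 223.1 in MM. No region was assigned to the T and NK cell genes Cd3e, Cd8a and Gzmb, the B cell genes Cd79a and Pax5, or the collagen genes Col1a1 and Col1a2. Regions of neutrophil markers summed to 143.4 to 154.5 CPM in the 6 libraries given CpG, against 96.66 to 132.2 in the others, and those of stroma markers to 138.9 and 147 in MM, against 164.5 to 207.5 in the others. With polyI:C, the sums were also higher for the 3 regions of the one B cell gene that had any (60.43 and 63.59 CPM in MP and 56.93 and 57.27 in PL, against 24.32 and 29.09 in MM), for the 4 regions of T and NK cell genes (58.08 and 58.2 in MP, against 42.86 and 45.14 in MM) and for the 19 regions of dendritic cell genes (329.5 and 334.6 in MP, against 262.8 and 272.8 in MM). The part of any of these sums in the results was not tested. In a bulk sample, fewer open cells and less opening per cell cannot be told apart. The 2 MP libraries agreed within sampling noise (chi-square per region 1.004, p = 0.254 over 53346 regions, against 1.07 to 2.724 for the other pairs), so the calls with MP were also made with both counted as 1 sample. The 2 PT libraries differed most (r = 0.919 across regions), and the calls with PT were also made without each of them.

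Of the annotated promoters, 3 lay wholly inside a measured region, those of Cd36, Abca1 and Mylip. They are shown because the Cd36 promoter closed and the Abca1 promoter opened with stimulation, while the Mylip promoter was called in none of the 4 comparisons of 1 stimulus with medium. Each line holds the 250 bases before the annotated start, read 5′ to 3′ on the strand of the gene, from RefSeq (GRCm38.p6), at chr5:17835897-17836146 on the minus strand for Cd36, chr4:53159896-53160145 on the minus strand for Abca1 and chr13:45389492-45389741 on the plus strand for Mylip. Capitals mark motif matches.
Cd36: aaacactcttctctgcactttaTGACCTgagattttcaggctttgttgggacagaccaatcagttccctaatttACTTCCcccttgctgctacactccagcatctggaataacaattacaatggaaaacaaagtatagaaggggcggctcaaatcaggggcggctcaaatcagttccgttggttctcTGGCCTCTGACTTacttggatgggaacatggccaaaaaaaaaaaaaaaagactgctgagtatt
Abca1: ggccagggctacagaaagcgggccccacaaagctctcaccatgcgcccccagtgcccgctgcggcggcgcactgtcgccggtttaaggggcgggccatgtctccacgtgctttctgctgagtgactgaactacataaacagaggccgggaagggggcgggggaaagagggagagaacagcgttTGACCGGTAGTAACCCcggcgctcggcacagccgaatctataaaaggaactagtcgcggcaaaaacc
Mylip: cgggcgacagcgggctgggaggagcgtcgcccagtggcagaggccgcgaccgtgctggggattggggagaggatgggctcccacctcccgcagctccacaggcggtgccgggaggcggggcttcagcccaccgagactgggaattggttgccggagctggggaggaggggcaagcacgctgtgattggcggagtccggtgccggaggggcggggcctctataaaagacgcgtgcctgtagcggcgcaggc
In the Cd36 promoter, the capitals mark in order the nuclear receptor element AGGTCA on the other strand, the PU.1 core GGAAGT on the other strand, and a PPAR-RXR direct repeat on the other strand, which is a pair of AGGTCA elements 1 base apart with at most 1 mismatch in each. In the same window length from 250 bases before to 50 after a start, the AGGTCA element was present in 16.3%, the PU.1 core in 23.8% and that direct repeat in 2.4% of 32851 annotated promoters, with both strands searched. The capitals in the Abca1 promoter mark an LXR-RXR direct repeat, a pair of AGGTCA elements 4 bases apart, with 2 mismatches in one element and 1 in the other. This looser form was chosen after the sequence was seen and was present in 18.8% of promoters. At most 1 mismatch in each element was met by 1.75% of promoters and not by that of Abca1. The Mylip promoter held none of the searched motifs, which also included AP-1 (TGANTCA, in 7.81% of promoters), the NF-kB consensus (4.51%) and a pair of TTTC copies 2 bases apart (3.44%). A match is a description of letters and not a binding site. Over the 300-base window, GC content was 43% with 3 CpG dinucleotides at Cd36, 62.7% with 26 at Abca1 and 71% with 29 at Mylip, against medians of 52.7% and 7 over all promoters. Thus the promoter that closed is poor in CpG dinucleotides, and both others are rich in them.

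Over the 9 groups, 66 of the 84 regions (78.6%) differed in limma's moderated F test, against 69.7% of all regions. All regions of Lpl, Mylip and Rxra were among them, and 6 of the 11 of Plin2. With 1 stimulus against medium, CpG (MC) raised 18 and lowered 8 of the 84 regions, against backgrounds of 17.7% and 9.23% of all regions, and LPS (ML) raised 19 and lowered 7, against 15.5% and 10.3%. PolyI:C (MP) raised 14 and lowered 18, against 19.0% and 14.2%, and TNF (MT) raised 9 and lowered 1, against 6.15% and 0.686%. As shares of the 84 regions these were 21.4% higher and 9.5% lower for MC, 22.6% and 8.3% for ML, 16.7% and 21.4% for MP, and 10.7% and 1.2% for MT. Called regions fell to 15 for MC without MC replicate 2 and 17 without MM replicate 2, to 15 for ML without ML replicate 1 or MM replicate 2 and 16 without ML replicate 2, and for MT to 5 or 6 with the first or second MT library left out and to 4 without MM replicate 2. Counting the 2 MP libraries as 1 sample, MP raised 9 and lowered 14. The 4 comparisons share the MM libraries. In all, 7 regions were called higher with each of the 4 stimuli, at Abca1 (2), Msr1 (2), Lpl (2) and Nr1h3 (1), and 1 was called lower with each, at Msr1. At 41 of the 84, no single stimulus gave a call. The shares of all regions with these patterns were not counted, so these numbers have no background to be read against.

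**Figure D1:**
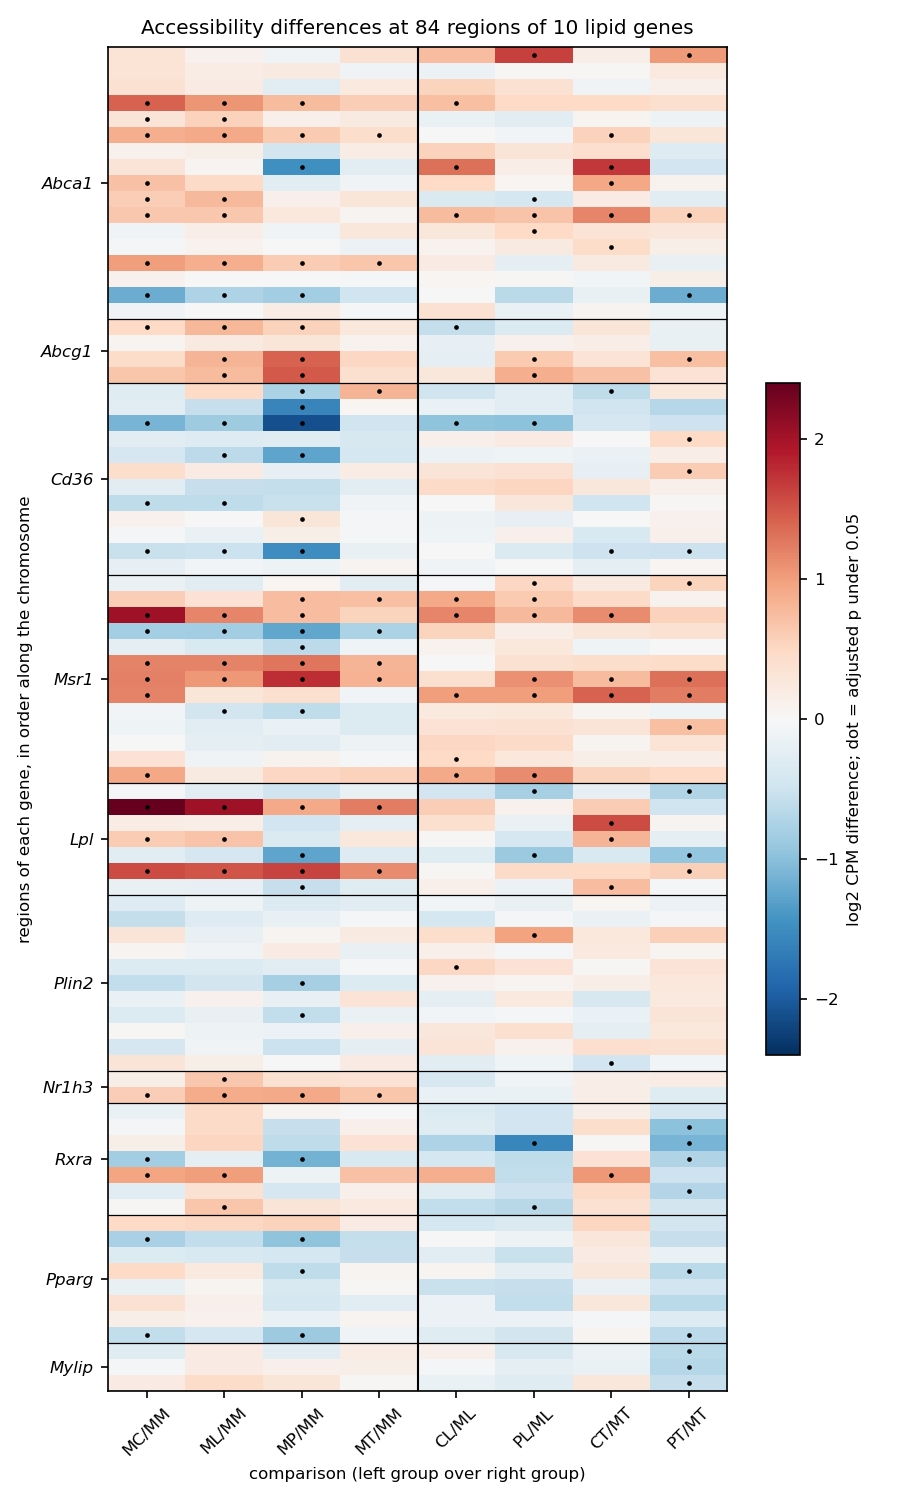
Log2 CPM differences at the 84 regions (rows, grouped by gene and in order along the chromosome) in 8 comparisons (columns, left group over right group), with a dot where the limma adjusted p was under 0.05. Cd36 rows are mostly blue and Abca1, Msr1 and Lpl rows mostly red among the dots of the single stimuli, and the Mylip rows carry dots under PT/MT alone.

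**Figure D2:**
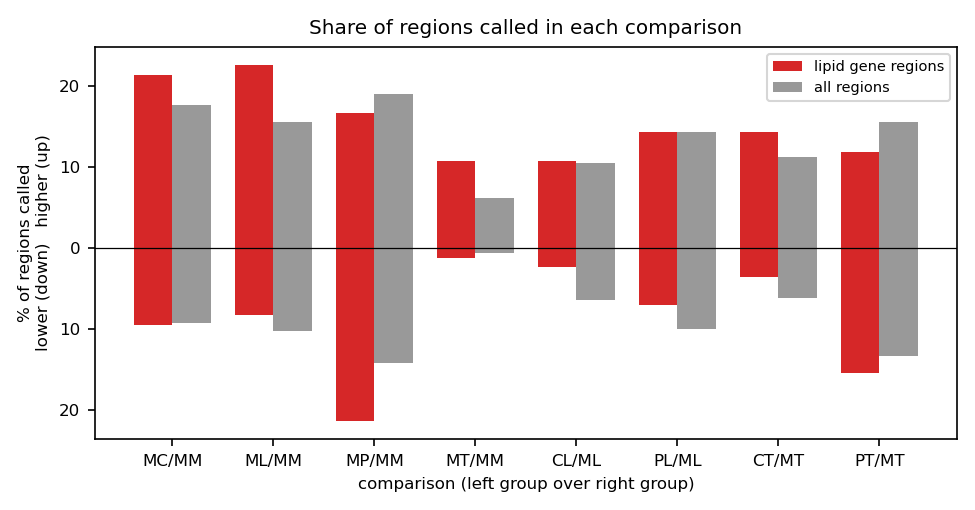
Percent of regions called higher (bars upward) and lower (bars downward) in each of the 8 comparisons, for the 84 lipid gene regions and for all 53796 regions, by limma adjusted p under 0.05. The downward bar under MP/MM reaches 21.4% for the lipid genes, against 14.2% for all regions.

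Abca1, the transporter that passes cholesterol to lipid-poor apolipoprotein A-I, opened at its promoter with every stimulus. The promoter region (chr4:53159836-53160337 as deposited, midpoint 191 bases upstream of the start) had 5.87 and 5.91 log2 CPM in MC, 5.62 and 5.92 in ML, 5.55 and 5.44 in MP and 5.53 and 5.57 in MT, against 4.94 and 4.85 in MM. All 8 stimulated libraries lay above both MM libraries. The log2 differences were 1.00 ± 0.13 for MC (SE, adjusted p = 6.12e-08), 0.88 ± 0.13 for ML (1.15e-06), 0.60 ± 0.13 for MP (0.000232) and 0.66 ± 0.13 for MT (0.000347), and all 4 stayed called under every alternative tried. With both MP libraries as 1 sample the MP difference kept an adjusted p of 0.00484. A first stimulus made no called difference at the promoter, which had 5.99 and 5.94 in CL and 5.51 and 5.56 in PL, against 5.62 and 5.92 in ML. The difference was 0.19 for CL (95% interval -0.06 to 0.45) and -0.23 for PL (-0.49 to 0.02). Under TNF it was 0.22 for CT (-0.03 to 0.48) and -0.18 for PT (-0.43 to 0.08).

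Of the 17 Abca1 regions, CpG raised 7 and lowered 1, LPS 6 and 1, polyI:C 3 and 2, and TNF 2 and 0. The shares of all regions were 17.7% and 9.23%, 15.5% and 10.3%, 19.0% and 14.2%, and 6.15% and 0.686%. An internal region (chr4:53121800-53122301) was, like the promoter, called higher with each stimulus. Its means were 5.56 log2 CPM in MC, 5.59 in ML, 5.30 in MP and 5.10 in MT, against 4.68 in MM. At some other internal regions the stimuli parted. A region 32.9 kb downstream of the start (chr4:53126784-53127285) had 4.39 and 4.22 log2 CPM in CL and 4.46 and 4.27 in CT, 3.43 and 2.85 in PL, 2.33 and 2.08 in PT and 1.81 and 1.09 in MP. It had 2.90 and 3.08 in ML, 3.05 and 2.28 in MT, 3.11 and 3.33 in MC and 2.99 and 2.85 in MM. Both groups with CpG first lay above all others, and MP lay below all others. PolyI:C alone lowered it by a log2 difference of -1.47 ± 0.26 against medium (adjusted p = 2.05e-05, and 0.000371 with MP as 1 sample). CpG before LPS raised it by 1.31 ± 0.26 against LPS alone (0.000432) and CpG before TNF by 1.70 ± 0.26 against TNF alone (6.18e-06), while CpG alone differed from medium by 0.30 (95% interval -0.22 to 0.83). In the most distant internal region, 79.5 kb downstream (chr4:53080120-53080621), the groups given polyI:C first stood highest. This region held few reads, 6 to 33 per library, and its mean level was at percentile 0.5 of all regions. Its values were 2.87 and 2.98 in PL, against 1.44 and 1.15 in ML, and 2.73 and 2.44 in PT, against 1.48 and 1.64 in MT. The difference was 1.63 ± 0.33 for PL (0.000351) and 1.02 ± 0.33 for PT (0.0181), and the PT call was lost without MT replicate 1 (0.94, adjusted p = 0.108) or PT replicate 1 (0.88, 0.0873) and with quantile normalization (0.66, 0.135). A region 27.4 kb upstream (chr4:53187066-53187567) went the other way from the promoter, with 2.53 and 3.10 in MC, against 3.99 and 4.02 in MM, a difference of -1.19 ± 0.25 (0.000237). It was also lower in PT, with 2.68 and 1.97, against 3.48 and 3.57 in MT (-1.20 ± 0.25, 0.000328, and called without either PT library).

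**Figure D3:**
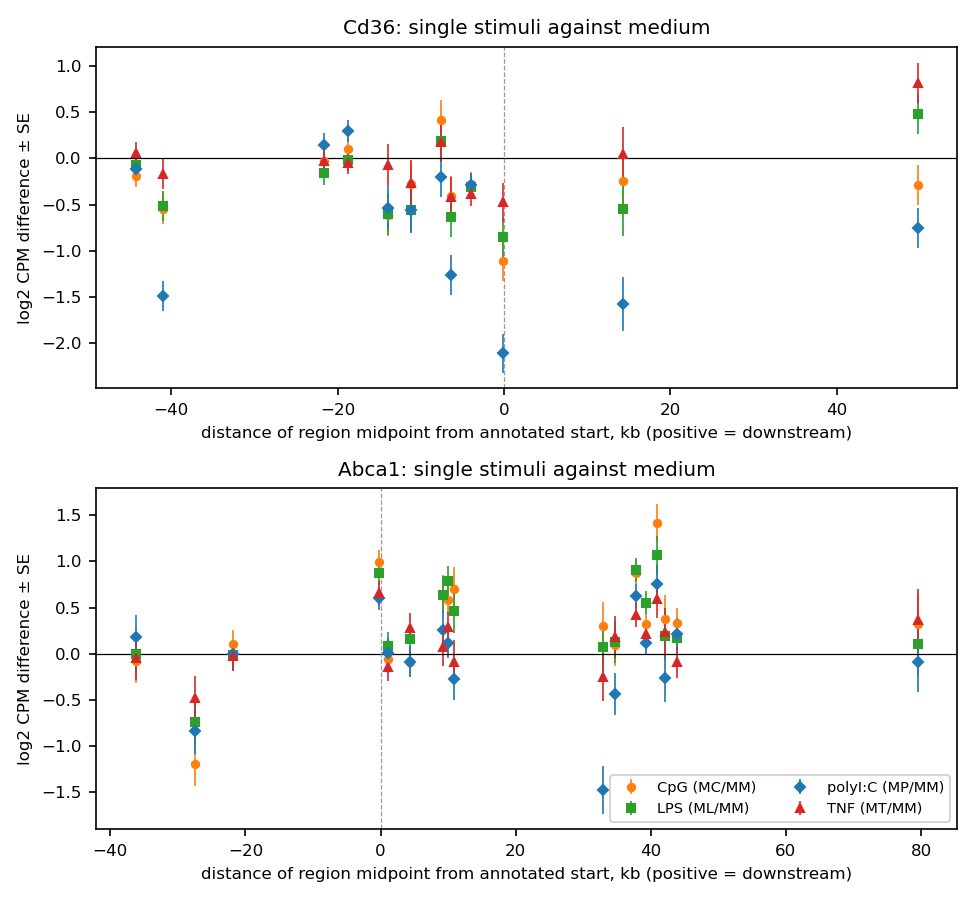
Log2 CPM difference against medium (MM), ± SE, of each region of Cd36 (top) and Abca1 (bottom) by the distance of its midpoint from the annotated start in kb, for CpG, LPS, polyI:C and TNF alone. At the Cd36 start the 4 points run from -2.11 for polyI:C to -0.48 for TNF, at the Abca1 start from 0.60 to 1.00, and the polyI:C point 32.9 kb into Abca1 lies apart at -1.47.

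Abcg1, which exports cholesterol to mature high-density lipoprotein, had 3 of its 4 regions called higher with polyI:C and 3 with LPS. Of all regions, 19.0% and 15.5% were called higher. The LPS count was 1 after quantile normalization, and none of the 4 was called in MP against ML. The largest rises with polyI:C were at 2 internal regions. An internal region 9.6 kb from a gene end (chr17:31067018-31067519) had 3.71 and 3.83 log2 CPM in MP, 3.42 and 2.92 in ML, 2.63 and 2.97 in MC and 3.02 and 2.67 in MT, against 2.21 and 2.49 in MM. Another, 17.9 kb from a gene end (chr17:31075308-31075809), had 3.45 and 3.62 in MP and 2.97 and 2.66 in ML, against 2.21 and 1.91 in MM. The MP differences were 1.42 ± 0.23 (adjusted p = 5.15e-06) and 1.47 ± 0.28 (6.94e-05), and 0.000333 and 0.00217 with MP as 1 sample. At the first of them LPS alone gave 0.82 ± 0.23, a call lost without ML replicate 1 (0.57, adjusted p = 0.181) or MM replicate 1 (0.68, 0.0855) and with quantile normalization (0.60, 0.0635). PolyI:C exceeded LPS by 0.60 there, which was not called (adjusted p = 0.0569). CpG alone gave 0.45 (95% interval -0.02 to 0.91) there and polyI:C exceeded CpG by 0.97 ± 0.23 (0.00167), which without MC replicate 1 was 0.80 with an adjusted p of 0.0532. With polyI:C first, the region 9.6 kb from a gene end had 3.90 and 3.70 in PL, against 3.42 and 2.92 in ML (0.63, adjusted p = 0.0418), and 3.77 and 3.36 in PT, against 3.02 and 2.67 in MT (0.71, 0.0176). The PL call was lost without ML replicate 2 (0.38, 0.388) or either PL library (0.53, 0.218 and 0.73, 0.0854), with quantile normalization (0.54, 0.0827) and with a shift to one median (0.57, 0.0653). The PT call was lost without PT replicate 1 (0.51, 0.141) or MT replicate 2 (0.54, 0.166) and with only the compared groups (0.71, 0.0811). The region 17.9 kb from a gene end was called higher in PL (0.87, 0.021), a call lost without ML replicate 2 (0.72, 0.172) or either PL library (0.75, 0.152 and 1.00, 0.0581) and without a variance trend (0.87, 0.0505). With LPS alone that region gave 0.75 (adjusted p = 0.0447), a call lost with any library of ML or MM left out. PolyI:C exceeded CpG there by 0.81 (0.0332). This call was lost with any library of MP or MC left out, with MP as 1 sample and without a variance trend. With CpG first, neither internal region was called. A region 19.1 kb outside the gene (chr17:31038322-31038823) had 5.20 and 5.14 in ML, against 4.40 and 4.35 in MM. The difference was 0.80 (0.00069), a call lost in no alternative. CL was below ML there (-0.58, 0.0186), a call lost with any library of CL or ML left out.

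Cd36, the class B scavenger receptor for oxidized lipoproteins and long-chain fatty acids, lost accessibility at its promoter. The region (chr5:17835772-17836273, midpoint 126 bases upstream of the start) had 2.55 and 2.59 log2 CPM in MP, 3.53 and 3.60 in MC, 3.65 and 4.00 in ML and 4.22 and 4.18 in MT, against 4.59 and 4.77 in MM. All 8 stimulated libraries lay below both MM libraries. PolyI:C gave a log2 difference of -2.11 ± 0.21 (adjusted p = 2.07e-10), which is 0.232 of the MM level, and 1.24e-07 with MP as 1 sample. CpG gave -1.11 ± 0.21 (7.12e-05). LPS gave -0.85 ± 0.21 (0.00233), and this call was lost without ML replicate 1 (-0.68, adjusted p = 0.074). TNF gave -0.48, which was not called (95% interval -0.90 to -0.05, adjusted p = 0.212). PolyI:C was lower than LPS, with a difference of -1.25 ± 0.21 (2.13e-05) and lower than CpG, with a difference of -0.995 ± 0.21 (0.00047), with adjusted p of 0.000997 and 0.00829 with MP as 1 sample.

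A first stimulus lowered the Cd36 promoter further under LPS. It had 2.92 and 2.76 log2 CPM in PL and 2.51 and 3.20 in CL, against 3.65 and 4.00 in ML. No library of PL or CL reached the lower ML library. PL differed from ML by -0.98 ± 0.21 (adjusted p = 0.000626), and CL by -0.97 ± 0.21 (0.00124), a call lost without CL replicate 1 (-0.62, adjusted p = 0.105). Under TNF the values were 3.54 and 3.88 in PT and 3.80 and 3.78 in CT, against 4.22 and 4.18 in MT, with differences of -0.49 for PT (95% interval -0.92 to -0.07, adjusted p = 0.0744) and -0.41 for CT (-0.84 to 0.01, 0.188), neither called. Without PT replicate 2 the PT difference was -0.66 (adjusted p = 0.0492), and without PT replicate 1 it was -0.32 (0.319). In order of group means, the promoter was least open in MP, then in PL and CL, then in MC, PT, CT and ML, then in MT and most open in MM.

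Other Cd36 regions fell with polyI:C as well. Over all regions, polyI:C lowered 14.2% and raised 19.0%, CpG lowered 9.23% and raised 17.7%, and LPS lowered 10.3% and raised 15.5%. Of the 12 Cd36 regions, 5 were lower and 1 was higher in MP against MM. CpG lowered 3 and LPS 4 while neither raised any. With MP as 1 sample 5 were lower and 0 higher. A region 41.0 kb upstream of the same start, still inside the gene body as annotated (chr5:17876603-17877104), had 3.47 and 3.56 log2 CPM in MP, against 5.03 and 4.98 in MM (-1.49 ± 0.16, adjusted p = 2.07e-09). An internal region 14.3 kb downstream (chr5:17821347-17821848) had 1.05 and 2.24 in MP, against 3.12 and 3.32 in MM (-1.58 ± 0.29, 3.97e-05). Both calls held with each library left out and with MP as 1 sample. One region was called in opposite directions, 49.7 kb downstream of the start (chr5:17785923-17786424), with 2.02 and 2.30 in MP and 3.60 and 3.87 in MT, against 2.93 and 2.91 in MM. The MP difference of -0.76 was lost without MP replicate 1 (-0.62, adjusted p = 0.0885), and the MT difference of 0.82 without MM replicate 1 (0.83, 0.0643), MM replicate 2 (0.81, 0.0907) or MT replicate 2 (0.69, 0.188).

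**Figure D4:**
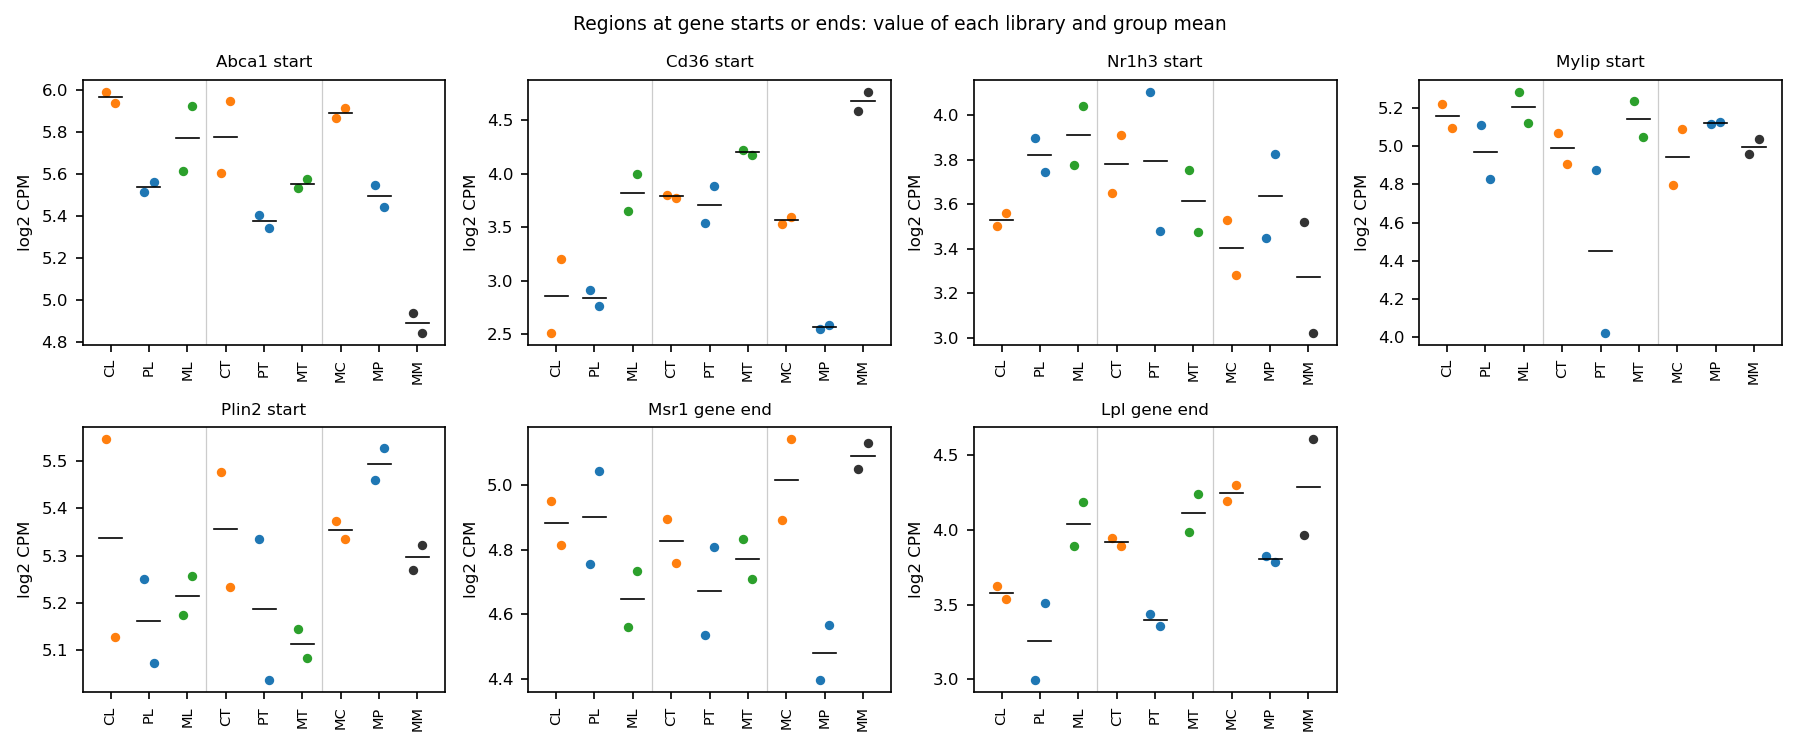
Log2 CPM of both libraries (points) and group mean (line) at regions at the start of Abca1, Cd36, Nr1h3, Mylip and Plin2 and at a gene end of Msr1 and Lpl, for CL, PL and ML, then CT, PT and MT, then MC, MP and MM. The vertical scale differs between panels. Cd36 is lowest in MP (2.55 and 2.59) and highest in MM, and Abca1 is lowest in MM (4.94 and 4.85).

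Msr1, the class A scavenger receptor for modified low-density lipoprotein, gained accessibility at several regions when a stimulus came first. Against the matched group with medium first, 6 of its 13 regions were higher in PL, 5 in CL, 4 in PT and 3 in CT, and none was lower in any of these comparisons. Of all regions, 14.3%, 10.5%, 15.6% and 11.2% were higher in these comparisons, in that order. The PL count was 4 after quantile normalization, and the PL and CL counts were 4 each after a shift to one median. The PT count was 7 without PT replicate 1 and 3 without PT replicate 2. A region 0.9 kb inside a gene end (chr8:39641561-39642062) had 4.24 and 3.81 log2 CPM in CL and 4.00 and 4.06 in PL, against 3.04 and 3.02 in ML, and 4.24 and 3.94 in CT and 3.74 and 4.05 in PT, against 2.58 and 2.78 in MT. It had 4.11 and 3.77 in MC and 3.10 and 3.14 in MP, against 2.99 and 2.49 in MM. The libraries with a first stimulus did not overlap those of ML or MT, and among the single stimuli CpG was called. The differences were 1.00 ± 0.21 for CL (adjusted p = 0.00102), 1.00 ± 0.21 for PL (0.000598), 1.41 ± 0.21 for CT (4.98e-06), 1.22 ± 0.21 for PT (4.19e-05) and 1.20 ± 0.21 for MC (2.9e-05), and 0.38 for MP (95% interval -0.05 to 0.81). The CL call was lost without CL replicate 1 (0.78, adjusted p = 0.0608), and the PT call held without either PT library.

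A region 6.5 kb from that end of Msr1 (chr8:39635971-39636472) had 4.17 and 4.28 log2 CPM in MP, 3.65 and 3.66 in MC, 3.36 and 3.59 in ML and 3.11 and 3.44 in MT, against 2.04 and 2.85 in MM. Every stimulated library lay above both MM libraries, and those with polyI:C stood highest. The differences were 1.78 ± 0.21 for MP (adjusted p = 6.27e-09, and 2.39e-06 as 1 sample), 1.22 ± 0.21 for MC (1.33e-05) and 1.03 ± 0.21 for ML (0.00021). That of MT was 0.83 (0.00653), lost without MM replicate 1 (0.43, adjusted p = 0.346) or MT replicate 2 (0.67, 0.154) and with quantile normalization (0.64, 0.0595). PolyI:C first added 1.09 ± 0.21 under LPS (0.000152), with 4.56 and 4.57 in PL, and 1.33 ± 0.21 under TNF (6.73e-06), with 4.49 and 4.73 in PT, a call that held without PT replicate 1 (1.63e-06) or PT replicate 2 (0.000103). Another, 32.3 kb from that end (chr8:39610206-39610707), rose most with CpG, to 3.11 and 3.22 in MC, against 1.13 and 1.13 in MM (2.04 ± 0.27, 2.13e-07).

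With single stimuli the 13 Msr1 regions went both ways. CpG raised 5 and lowered 1, LPS 3 and 2, polyI:C 4 and 3, and TNF 3 and 1. Of all regions, 17.7% and 9.23%, 15.5% and 10.3%, 19.0% and 14.2%, and 6.15% and 0.686% were higher and lower, in that order. After quantile normalization the counts were 2 and 2 for LPS, 2 and 3 for polyI:C and 1 and 0 for TNF. At 1 Msr1 region, 23.7 kb from that end (chr8:39618800-39619301), all 4 stimuli were called lower than medium. It had 2.72 and 2.36 log2 CPM in MP and 2.99 and 3.07 in MT, against 3.58 and 4.00 in MM. The MP difference was -1.25 ± 0.24 (adjusted p = 5.36e-05, and 0.0013 with MP as 1 sample). The others were -0.81 for MC, -0.83 for ML and -0.76 for MT, and each was lost when 1 library was left out, all 3 of them without MM replicate 2 (-0.60, -0.62 and -0.55, with adjusted p of 0.152, 0.146 and 0.438). The other omissions that ended a call were MC replicate 2 (-0.54, 0.193), ML replicate 2 (-0.72, 0.0876) and, for MT, MT replicate 1 (-0.72, 0.195) and MT replicate 2 (-0.79, 0.141). The MT call also ended with quantile normalization (-0.72, 0.0937) and without a variance trend (-0.76, 0.0519). The region at that gene end itself was at chr8:39642491-39642992. It had 4.40 and 4.57 log2 CPM in MP and 4.56 and 4.74 in ML, against 5.05 and 5.13 in MM. PolyI:C gave -0.61 there (adjusted p = 0.00146), a call lost in no alternative. LPS gave -0.44 (0.0262), lost without ML replicate 1 or either MM library and without a variance trend.

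Lpl, which hydrolyses lipoprotein triglycerides, had its largest changes at regions other than the one at a gene end. That region (chr8:68880292-68880793) was lower with polyI:C first. It had 3.00 and 3.51 log2 CPM in PL, against 3.89 and 4.19 in ML. Under TNF it had 3.43 and 3.36 in PT, against 3.98 and 4.24 in MT. The PL difference was -0.79 (adjusted p = 0.00366), lost without ML replicate 2 (-0.64) or PL replicate 1 (-0.53). The PT difference was -0.72 (0.00688), lost without MT replicate 2 (-0.59). A region 19.8 kb outside the gene (chr8:68926503-68927004) had 3.83 and 3.64 log2 CPM in MP, 3.45 and 3.93 in MC, 3.44 and 3.82 in ML and 3.08 and 3.41 in MT, against 1.91 and 2.32 in MM. The groups did not overlap MM. The differences were 1.62 ± 0.22 for MP (adjusted p = 1.48e-07, and 2.29e-05 as 1 sample), 1.57 ± 0.22 for MC (3.31e-07), 1.52 ± 0.22 for ML (9.86e-07) and 1.13 ± 0.22 for MT (0.00036). None of these 4 calls was lost in any alternative.

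The single region inside Lpl (chr8:68886645-68887146) had 2.89 and 3.41 log2 CPM in MC and 3.04 and 2.53 in ML, against 0.88 and 0.64 in MM. Both groups lay well above MM, where few reads fell. CpG gave 2.39 ± 0.31 (adjusted p = 9.05e-08) and LPS 2.03 ± 0.31 (3.33e-06). MP, with 1.17 and 2.17, gave 0.91, lost as 1 sample (0.0623), without MM replicate 2 (0.79, 0.129) or MP replicate 2 (0.41, 0.463), and with quantile normalization (0.19, 0.698) or voom (1.07, 0.108). MT, with 1.86 and 2.13, gave 1.23, lost without MM replicate 2 (1.11, 0.1) or MT replicate 2 (1.10, 0.108) and with quantile normalization (0.62, 0.399) or voom (1.49, 0.0687).

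PolyI:C lowered a further region 7.8 kb outside Lpl (chr8:68914446-68914947) whether given alone or first. It had 2.87 and 2.73 log2 CPM in MP, against 4.02 and 4.13 in MM, 2.79 and 2.76 in PL, against 3.65 and 3.69 in ML, and 2.81 and 2.86 in PT, against 3.72 and 3.82 in MT. The 6 libraries with polyI:C lay below all the others. The differences were -1.27 ± 0.20 for MP (adjusted p = 2.82e-06), -0.90 ± 0.20 for PL (0.00095) and -0.94 ± 0.20 for PT (0.000514), called without either PT library and with MP as 1 sample. CpG gave -0.28 alone, -0.29 before LPS and -0.37 before TNF, none called. CpG before TNF raised a region 1.2 kb outside the gene (chr8:68907932-68908433), which had 3.78 and 3.70 in CT, against 1.92 and 2.43 in MT (1.57 ± 0.30, 0.000156).

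**Figure D5:**
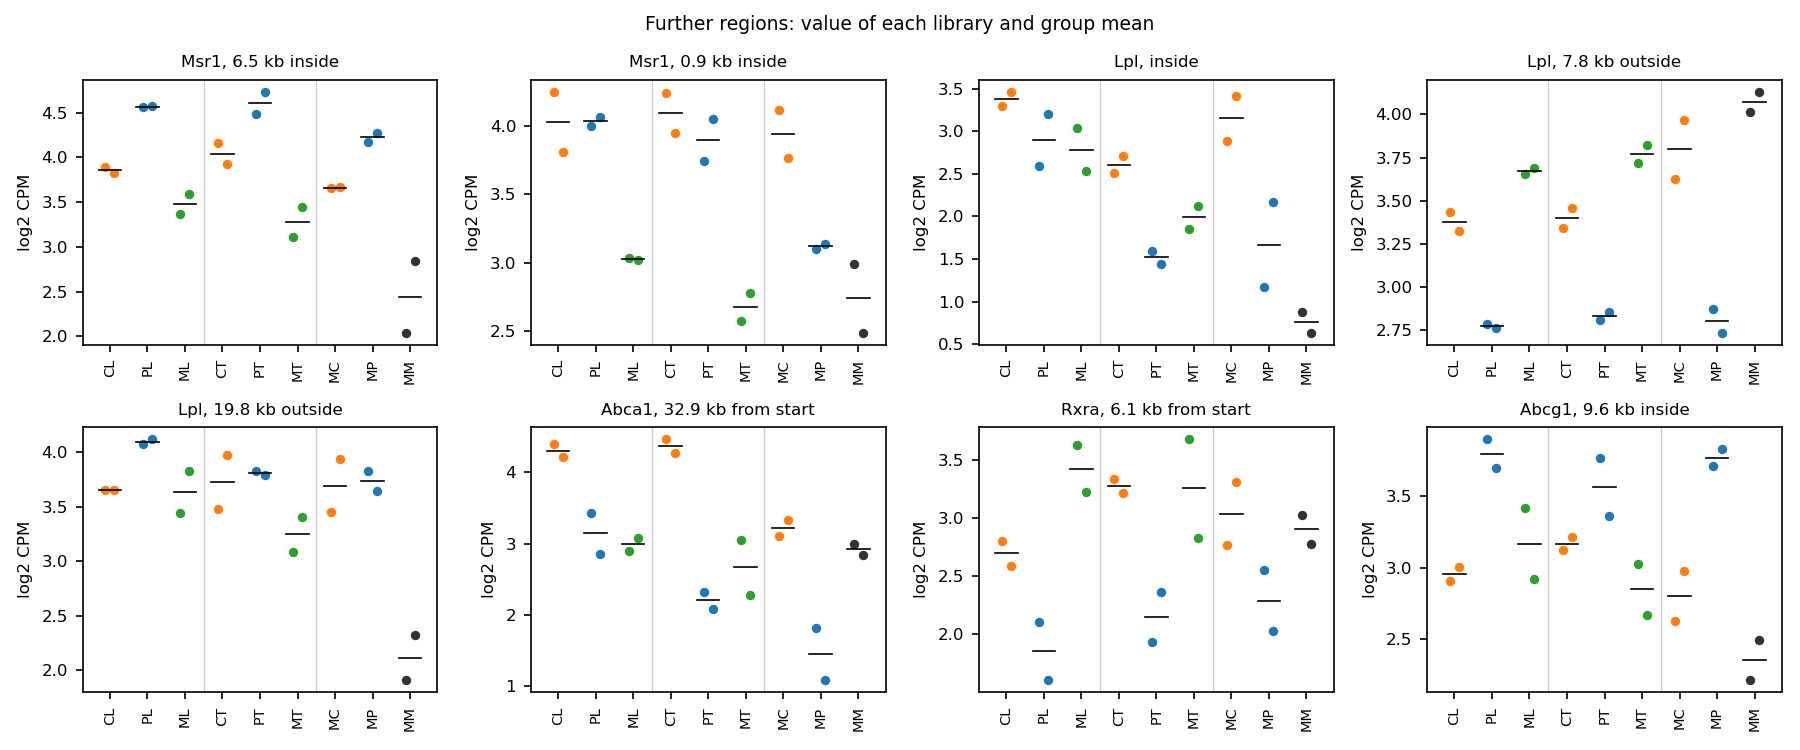
Log2 CPM of both libraries (points) and group mean (line) at 8 regions of Msr1, Lpl, Abca1, Rxra and Abcg1, for CL, PL and ML, then CT, PT and MT, then MC, MP and MM. The vertical scale differs between panels. The 6 libraries with polyI:C are the lowest 7.8 kb outside Lpl, and CL and CT are the highest 32.9 kb into Abca1.

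Plin2, which coats lipid droplets, changed little. No region of its 11 was called with CpG, LPS or TNF alone, and 2 were lower with polyI:C, of which 0 stayed called with MP as 1 sample. With CpG 2 were called lower after quantile normalization and 1 after a shift to one median. The region 497 bases downstream of its start (chr4:86669312-86669813) ranged from 5.04 to 5.55 log2 CPM over the 18 libraries. Its differences from medium were 0.06 for MC (95% interval -0.23 to 0.34), -0.08 for ML (-0.36 to 0.20), 0.20 for MP (-0.09 to 0.48) and -0.18 for MT (-0.46 to 0.10). An internal region 3.9 kb downstream of the start (chr4:86665889-86666390) had 3.54 and 3.79 in PL, against 2.47 and 2.92 in ML (0.97, adjusted p = 0.00179), a call lost without ML replicate 1 (0.75, 0.0712).

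Nr1h3, which encodes LXRα, opened with each stimulus 1.9 kb upstream of its start, still inside the gene body as annotated (chr2:91196755-91197256). The region had 5.93 and 5.92 log2 CPM in MP, 5.92 and 5.92 in ML, 5.51 and 5.72 in MC and 5.82 and 5.54 in MT, against 5.01 and 5.04 in MM. All 8 libraries of MP, ML, MC and MT lay above both MM libraries. The differences were 0.90 ± 0.15 for MP (adjusted p = 1.04e-05, and 0.000642 as 1 sample), 0.90 ± 0.15 for ML (2.06e-05), 0.59 ± 0.15 for MC (0.00282) and 0.66 ± 0.15 for MT (0.00346). The MC call was lost without MC replicate 2 (0.49, 0.0688), and the MT call without MT replicate 1 (0.52, 0.121) and without a variance trend (0.66, 0.0719). The region nearest the start, 294 bases downstream (chr2:91194491-91194992), was called with LPS and with no other single stimulus. It had 3.78 and 4.04 in ML, against 3.52 and 3.02 in MM (0.64, adjusted p = 0.0261). That call was lost without ML replicate 2 (0.51) or MM replicate 2 (0.39) and with quantile normalization (0.59, 0.0528). A first stimulus gave no called change at either Nr1h3 region.

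Rxra, the partner of both LXR and PPARγ, was lower with polyI:C than with LPS at several regions, while against medium few regions were called. In MP against MM 14.2% of all regions were lower and 19.0% higher, and in ML against MM 15.5% were higher and 10.3% lower. Of the 7 Rxra regions, 1 was lower and none higher in MP against MM, and in ML against MM 2 were higher and none lower. In MP against ML 5 were lower and none higher, against 10.3% of all regions lower. With MP as 1 sample, the calls 7.4 kb and 18.9 kb downstream of the start were lost. Without ML replicate 1, the calls 5.0, 6.1, 7.4 and 18.9 kb downstream were lost, at -0.84, -0.94, -0.86 and -1.21. With polyI:C first, 2 were lower in PL against ML and 4 in PT against MT, the second count becoming 6 without PT replicate 1 and 1 without PT replicate 2. Of all regions, 9.98% were lower in PL against ML and 13.4% in PT against MT. The region 6.1 kb downstream of the start (chr2:27715166-27715667) had 2.10 and 1.60 log2 CPM in PL, against 3.63 and 3.23 in ML, and 1.93 and 2.36 in PT, against 3.68 and 2.83 in MT. Neither polyI:C group overlapped its counterpart. The differences were -1.57 ± 0.28 for PL (adjusted p = 7.25e-05) and -1.11 ± 0.28 for PT (0.00286), the second lost without MT replicate 1 (-0.69, 0.156) and kept without PT replicate 1 (-0.90, 0.0221) or PT replicate 2 (-1.32, 0.00165). In MP it had 2.55 and 2.02, which was -1.14 ± 0.28 against ML (0.0026, and 0.0236 with MP as 1 sample), lost without ML replicate 1 (-0.94, 0.0765) or MP replicate 2 (-0.88, 0.088). A region 18.9 kb downstream (chr2:27727898-27728399) was called higher with CpG (0.94) and LPS (1.01), and without MM replicate 2 the differences were 0.26 (adjusted p = 0.696) and 0.32 (0.594). These calls were also lost without MC replicate 2 (0.72, 0.253) for CpG and without ML replicate 1 (1.08, 0.0828) or ML replicate 2 (0.94, 0.126) for LPS, and both with quantile normalization (0.34, 0.488 for CpG and 0.53, 0.239 for LPS).

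Pparg, which encodes PPARγ, had no region called higher in any of the 8 comparisons of a stimulus with medium. CpG lowered 2 of its 8 regions, polyI:C 3 (2 with MP as 1 sample), and PT against MT 2 (6 without PT replicate 1 and 0 without PT replicate 2). Of all regions, 9.23%, 14.2% and 13.4% were called lower in these comparisons, in that order. Over the 8 comparisons, 6.15% to 19.0% of all regions were called higher. No test against these shares was made. An internal region 13.1 kb downstream of the start (chr6:115375205-115375706) had 3.63 and 3.89 log2 CPM in MP, 4.64 and 5.03 in MC and 4.62 and 4.56 in ML, against 4.55 and 4.18 in MM. MP lay below all 3 other groups. The difference was -1.08 ± 0.19 against MC (adjusted p = 3.64e-05) and -0.83 ± 0.19 against ML (0.00106), both kept with MP as 1 sample. Against MM it was -0.60 (0.0111), lost with MP as 1 sample (0.0581) and without MM replicate 1 (-0.42, 0.186) or MP replicate 1 (-0.47, 0.144). In PT it had 4.02 and 3.56, against 4.22 and 4.65 in MT (-0.65), lost without PT replicate 2 (-0.42, 0.141) or MT replicate 2 (-0.44, 0.165).

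Mylip, a ubiquitin ligase induced by LXR, was called in PT against MT and in no other of the 8 comparisons, lower at all 3 regions. The promoter region (chr13:45389336-45389837) had 4.88 and 4.02 log2 CPM in PT, against 5.24 and 5.05 in MT, and the region 2.0 kb downstream (chr13:45391472-45391973) had 4.10 and 3.22 in PT, against 4.20 and 4.24 in MT. PT replicate 2 was the lowest of all 18 libraries at both. Without it the promoter difference of -0.69 became -0.27 (adjusted p = 0.265) and that of the second region, -0.55, became -0.11 (0.736). The promoter call was also lost without MT replicate 1 (-0.60, 0.0505), and the other without MT replicate 1 (-0.57, 0.0927) or MT replicate 2 (-0.53, 0.102). The summed macrophage marker regions were at 628.4 and 877.7 CPM in PT, against 891.1 and 952.9 in MT, and their part in this difference was not tested.

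With a first stimulus, 11 to 23 of the 84 regions were called. CL against ML had 9 higher and 2 lower, against 10.5% and 6.42% of all regions, and PL against ML had 12 higher and 6 lower, against 14.3% and 9.98%. These splits depend on the scaling of the libraries, with 9 higher and 5 lower for CL and 9 and 12 for PL after quantile normalization, and 7 and 6 for CL and 8 and 11 for PL after a shift to one median. CT against MT had 12 higher and 3 lower, against 11.2% and 6.18%, and PT against MT had 10 higher and 13 lower, against 15.6% and 13.4%, with 9 higher and 21 lower without PT replicate 1, and 9 higher and 6 lower without PT replicate 2. Leaving out 1 library of the 2 compared groups gave 4 to 7 calls for CL and 8 to 9 for CT, whichever library it was, 9 for PL without ML replicate 2 and 10 without either PL library, and for PT 10 without MT replicate 1 and 15 without PT replicate 2. MP against ML had 1 higher and 18 lower, against 11.0% and 10.3% of all regions, with a median log2 difference of -0.26 against 0.00, and MP against MC had 3 higher and 19 lower, against 9.99% and 12.1%. Without ML replicate 1 the first comparison had 11 calls, and the second had 12 to 14 with any of its 4 libraries left out. With MP as 1 sample the counts became 0 higher and 13 lower, and 1 higher and 12 lower. The effect of CpG first under LPS minus that under TNF was called at 0 of the 84 regions by limma and by voom on recovered reads (13 had an unadjusted p under 0.05, and 0.318% of all regions were called). The same difference for polyI:C first was called at 0 by both, with 1 region at an unadjusted p under 0.05 and 0 called among all regions. A different effect before LPS and before TNF was therefore not detected, at a median SE of 0.29 for such a difference.

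Other genes of lipid handling were counted from lists of regulators, receptors, efflux, storage and sterol synthesis genes, with 248 regions at 54 of 56 genes. CpG raised 15.3% and lowered 10.1% of these regions (38 and 25), against 17.7% and 9.23% of all regions. LPS raised 19% and lowered 4.4% (47 and 11), against 15.5% and 10.3%. PolyI:C raised 16.1% and lowered 13.7% (40 and 34), against 19.0% and 14.2%, and TNF raised 7.7% and lowered none (19 and 0), against 6.15% and 0.686%. The CpG counts were 29 higher and 28 lower with quantile normalization, and the polyI:C counts were 36 and 39 after a shift to one median and 27 and 19 with MP as 1 sample. In PL against ML 12 were higher and 44 lower (4.8% and 17.7%, against 14.3% and 9.98% of all regions). In PT against MT 15 were higher and 52 lower (6% and 21%, against 15.6% and 13.4%), and this split rested on PT replicate 2, with 18 higher and 19 lower without it, and 13 and 81 without PT replicate 1. In CL against ML 14 were higher and 20 lower (5.6% and 8.1%, against 10.5% and 6.42%), and in CT against MT 37 were higher and 12 lower (14.9% and 4.8%, against 11.2% and 6.18%). After the shift to one median these were 11 and 41 in CL and 29 and 15 in CT. Of 19 regions at sterol synthesis genes, 5 were lower in PL against ML and 8 in PT against MT, the second count becoming 9 without PT replicate 1 and 2 without PT replicate 2. Of 72 regions at other uptake receptors, 21 were lower and 4 higher in MP against ML, and 16 and 1 with MP as 1 sample. Npc2, which carries cholesterol out of lysosomes, had a region (chr12:84764642-84765143) higher by 3.05 ± 0.24 with polyI:C (adjusted p = 2.62e-09 with MP as 1 sample), and Lrp1, a lipoprotein receptor, had one at its start (chr10:127620870-127621371) with a difference of -2.03 ± 0.19 (3.71e-08 with MP as 1 sample).

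The regions most alike in pattern were sought for the most variable region of each gene, as Pearson's r over the 9 group means among 32649 regions of other genes that passed the F test, as a description. For the Cd36 promoter they lay at Nbas (r = 0.9685), Idh1 (0.9677) and Lpar5 (0.9646). For the Abca1 region 32.9 kb downstream of the start they lay at Prkcb (0.9849), Tet3 (0.9828) and Nln (0.9801). For the Abcg1 region 9.6 kb from a gene end they lay at Skil (0.9860), Swap70 (0.9831) and Acap2 (0.9825).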

How the data were processed

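The 18 ATAC-seq libraries made up 9 groups of 2. Per the submitters' processing notes, which are given here without settings, the build was mm10 (GRCm38), and the tools used before deposit were featureCounts, MACS3 3.0.0b1, Picard, SAMtools 1.9 and Bowtie2 2.2.5. The deposited values are log2 CPM made by the authors, at 53796 regions that each span 501 bases from start to end as deposited. All of them (100%) return whole reads within 0.01 if a mean prior of 3 reads and library sizes of 3196810 to 5982873 are assumed. The prior pulls regions with few reads together, so differences at low regions are understated.

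Limma 3.58.1 in R 4.3.3 fitted 9 group means to the deposited log2 values of all 18 libraries, with a variance trend (9 residual and 29.09 prior degrees of freedom). The median SE of a difference was 0.205. Regions were assigned to genes with RefSeq positions on GRCm38.p6, and starts and promoters came from a RefSeq promoter table, in which 7 of the 10 genes had 11 promoters. Tables were handled in Python 3.11.15 with pandas 2.3.3 and numpy 2.4.6.

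The members, gene lists and tests were chosen with earlier results of these data known. Named regions, 35 in all, are the one nearest each gene's start (or gene end where no strand is given) within 1 kb, up to 3 called rises and 3 called falls in each of the 8 comparisons, and each gene's most variable region. The fit was tested on simulated reads. For MP against MM, 200 of the 53796 regions were changed, with one setting of the spread for all. The fit recovered 6% of changes of 0.5 on the log2 scale, 56% of changes of 1, and 100% of changes of 2 or 3. In the data 17858 regions were called in that comparison, which makes the adjustment of p less strict. The simulated shares therefore do not apply to the reported calls.

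Alternatives were quantile normalization, a shift of each library to one median, the lowest 25% of regions by mean level left out, log2(CPM + 1), no variance trend, only the compared groups, a replicate block, voom on recovered reads, MP as 1 sample, each library left out, and other assignments (within 10 kb, or by nearest gene end).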

Additional observations from a re-analysis of the deposited data

How the results depend on the processing

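Over the 132 called differences at named regions, 1371 of 1597 alternative values kept direction and call, 226 kept direction and lost the call, and 0 reversed. Of the 132, those lost were 15 with quantile normalization, 3 with the shift to one median, 19 without the variance trend, 8 with only the compared groups, 8 with voom and 0 with log2(CPM + 1). The counts of called regions among the 84 that moved by over 1.5 times were those of MT against MM, 10 as reported, 5 with quantile normalization and 6 without the trend. With only the compared groups in the fit, CL against ML gave 20 (11 as reported), PL against ML 29 (18), PT against MT 11 (23), MP against ML 31 (19) and the CpG difference between LPS and TNF 3 (0). MP against MC, 22 as reported, gave 14 with the lowest 25% of regions left out (70 of the 84 remained) and 13 with MP as 1 sample. The higher and lower counts moved to 14 and 10 for MC against MM with quantile normalization. The cause of these shifts was not tested.

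Leaving out 1 library in turn gave 61 to 73 for the F test, 15 to 20 for MC, 15 to 20 for ML, 24 to 27 for MP and 4 to 8 for MT against MM, 4 to 7 for CL and 9 to 13 for PL against ML, 8 to 9 for CT and 10 to 30 for PT against MT, 11 to 14 for MP against ML, 12 to 14 for MP against MC, and 0 to 1 for both differences of differences. For PT against MT the count was 30 without PT replicate 1 and 15 without PT replicate 2. A group left with 1 library was assumed to vary like the others.

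With the replicate number as a block, 131 of the 132 calls held, the exception being CT against MT at the Cd36 region 49.7 kb downstream of the start (-0.60, adjusted p = 0.0533), and counts were 26 for MC, 25 for ML, 32 for MP and 10 for MT against MM. The numbers did not pair the libraries: over 36 pairs of groups the correlation of their deviations ran from -0.358 to 0.242, with 5 over 0.1. Assignment within 10 kb kept 68 regions and assignment by nearest gene end shared 81. Regions with few reads, such as that inside Lpl with 3 reads in one library, limit the precision.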
